A study of Mus musculus with 6 samples.

Results

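The protocadherins are the largest family of cadherin-type adhesion proteins, and their messenger RNA was measured by RNA-seq in 2 mouse cell lines. All genes whose symbol starts with Pcdh were taken, which gave 71 of the 23284 RefSeq genes in the count table. Of these, 15 belonged to the alpha cluster, 22 to the beta cluster and 22 to the gamma cluster, and 12 lay outside the clusters. MV+ cells, the Pax6-ON line of the study, were derived from cultured lens epithelia of a wildtype C57BL6 mouse and express the eye transcription factor Pax6. RAG cells, the Pax6-OFF line, came from a renal adenocarcinoma of a BALB/c mouse. Each line was grown untreated in 3 separate flasks in the same serum-containing medium, and each flask gave 1 library. Tissue of origin, mouse strain and tumor origin changed together between the lines, so their parts in any difference cannot be told apart, and each group is 1 line whose identity the study did not authenticate. Library totals were between 17413045 and 22428230 counts in MV+ and between 28252165 and 43168532 in RAG, so a low level was measured with more counts in RAG.

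Clustered protocadherins are read from alternative promoters, each in front of its own large variable exon that encodes the whole extracellular part. In the alpha and gamma clusters the chosen variable exon is spliced to constant exons that all genes of that cluster use, whereas beta genes are single exons. Most variable promoters are bound by CTCF and contact distant enhancers through cohesin loops, and in many neurons each cell uses only a few of them, while the C-type genes at the end of the alpha and gamma clusters are used more evenly. The proteins join into combinations that bind only the same combination on another cell. Protocadherins outside the clusters have ordinary promoters and fall into delta-1 genes, which carry a binding motif for protein phosphatase 1, delta-2 genes, several of which bind the WAVE actin complex, and a few others.

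The marker genes went only partly with the labelled origins. In MV+, Pax6 had 1136, 1159 and 1316 counts (0, 0 and 4 in RAG), and Six3, another eye factor, 622, 508 and 681. The lens factor Foxe3 and the lens crystallin Crygs had 0 counts in MV+, and the lens crystallin Cryaa had 10, 10 and 3. Cryab, also on the lens list, went the other way, with 713, 740 and 785 counts in MV+ and 2529, 1871 and 3009 in RAG. Its log2 fold change (MV+ minus RAG) was -1.08 (SE 0.09, adjusted p = 2.88e-08 by edgeR). In RAG, the kidney cadherin Cdh16 had 4342, 3439 and 5436 counts and the renal factor Pax8 904, 673 and 1109. Epcam, an adhesion molecule of epithelia, had 0 counts in RAG, and the cadherin Cdh1 had 3, 3 and 2. Since clustered protocadherins are best known from neurons, 10 neuron markers were also read, and their summed level was between 103 and 107 CPM (counts scaled to a common library size with edgeR's TMM factors) in MV+ and between 5.01 and 5.91 in RAG. The edgeR test covered 5 of the 10 markers and called 4 of them higher in MV+ and Slc17a7, a glutamate transporter, lower. Over all genes tested, 79.3% were called and 40.4% were higher in MV+. Of those 4 markers, Syp and Syt1 were low, with means of 0.608 and 0.435 CPM in MV+ and 0.299 and 0.103 CPM in RAG. The sum came mostly from Map2 (listed as Mtap2), a microtubule protein, at 81.3 ± 3.65 CPM in MV+ (SD, n = 3, as for all CPM values) and 0 counts in RAG, and from the tubulin Tubb3, at 19.5 ± 2.05 against 0.367 ± 0.223 CPM. The defining neuron genes Rbfox3 and Gad1 had 0 counts in all 6 libraries, and the synaptic gene Snap25 had 4 MV+ counts and 7 RAG counts. The part of Map2 and Tubb3 in the results below was not tested.

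The promoters of the 5 delta-2 genes are shown because these genes carried the widest range of levels among the protocadherins outside the clusters, from 1 count in 6 libraries (Pcdh8) to 15053 counts over the MV+ libraries (Pcdh17). Each line holds the 150 bases before the RefSeq start, 5′ to 3′ on the gene's strand, from the RefSeq promoter table (build GRCm38.p6), and each was found once in mm9. Capitals mark every CCAAT, the sequence known as the CCAAT box, in either strand (ATTGG when read on the strand shown). In mm9 the windows are chr14:80171120-80171269 on the minus strand for Pcdh8, chr3:45182170-45182319 on the plus strand for Pcdh10, chr14:84843220-84843369 on the plus strand for Pcdh17, chr3:49561239-49561388 on the minus strand for Pcdh18 and chrX:130223533-130223682 on the minus strand for Pcdh19.
Pcdh8: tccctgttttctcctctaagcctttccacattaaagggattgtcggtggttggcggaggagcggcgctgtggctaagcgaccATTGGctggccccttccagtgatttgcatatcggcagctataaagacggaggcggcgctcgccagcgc
Pcdh10: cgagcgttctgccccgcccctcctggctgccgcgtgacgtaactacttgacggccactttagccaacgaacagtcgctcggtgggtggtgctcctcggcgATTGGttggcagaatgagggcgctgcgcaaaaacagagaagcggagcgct
Pcdh17: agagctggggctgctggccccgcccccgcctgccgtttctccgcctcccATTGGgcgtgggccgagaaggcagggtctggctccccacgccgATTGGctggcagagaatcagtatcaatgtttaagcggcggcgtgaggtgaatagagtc
Pcdh18: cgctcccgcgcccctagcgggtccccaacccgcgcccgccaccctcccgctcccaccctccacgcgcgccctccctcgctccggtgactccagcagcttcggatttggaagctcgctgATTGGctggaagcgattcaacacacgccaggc
Pcdh19: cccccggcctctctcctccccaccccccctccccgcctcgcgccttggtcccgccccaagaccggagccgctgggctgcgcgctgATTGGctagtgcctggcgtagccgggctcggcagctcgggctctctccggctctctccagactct
All 5 windows held CCAAT in either strand, against 24.5% of 32851 RefSeq promoters of the same length. The longer CCAATC was in 4 of them, all but Pcdh8, against 10.9% of promoters. The Pcdh8 window also held TATAAA, which 7.57% of promoters did. Of the 4 other genes outside the clusters with an entry in the promoter table, 2 held CCAAT as well, Pcdh9 (also CCAATC) and Pcdh15. These letters were chosen after the sequences were seen and are a description only.

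Of the 71 genes, 60 had a count in some library and 31 passed edgeR's filter on low counts and were tested. Of those 31, 24 were higher in MV+, 5 were lower and 2 were not called at an adjusted p of 0.05 (quasi-likelihood test of edgeR, Benjamini-Hochberg over all 12965 genes tested). Over all genes tested 79.3% were called, 40.4% as higher and 38.9% as lower in MV+. The filter bears on these counts, since 22 of the 31 reached its minimum of 0.395 CPM in all libraries of MV+ alone, 3 in all of RAG alone, 5 in all libraries of both lines and 1 (Pcdhgb7) in neither. A gene near 0 in 1 line could pass only where it was high in the other, so the direction of many of these calls was set by the filter, and the counts and medians of tested genes are a description only. The 5 genes above the minimum in every library were Pcdhgc3 and Pcdh17, which were higher in MV+, Pcdh7 and Pcdh1, which were lower, and Pcdh10, which was not called. The median log2 fold change (MV+ minus RAG) of the 31 was 6.69, or 5.58 with genes at 0 counts in RAG placed at their lower bound, beside 0.03 over all genes tested. In bulk RNA, fewer cells that express a gene and less RNA per cell cannot be told apart.

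**Figure D1:**
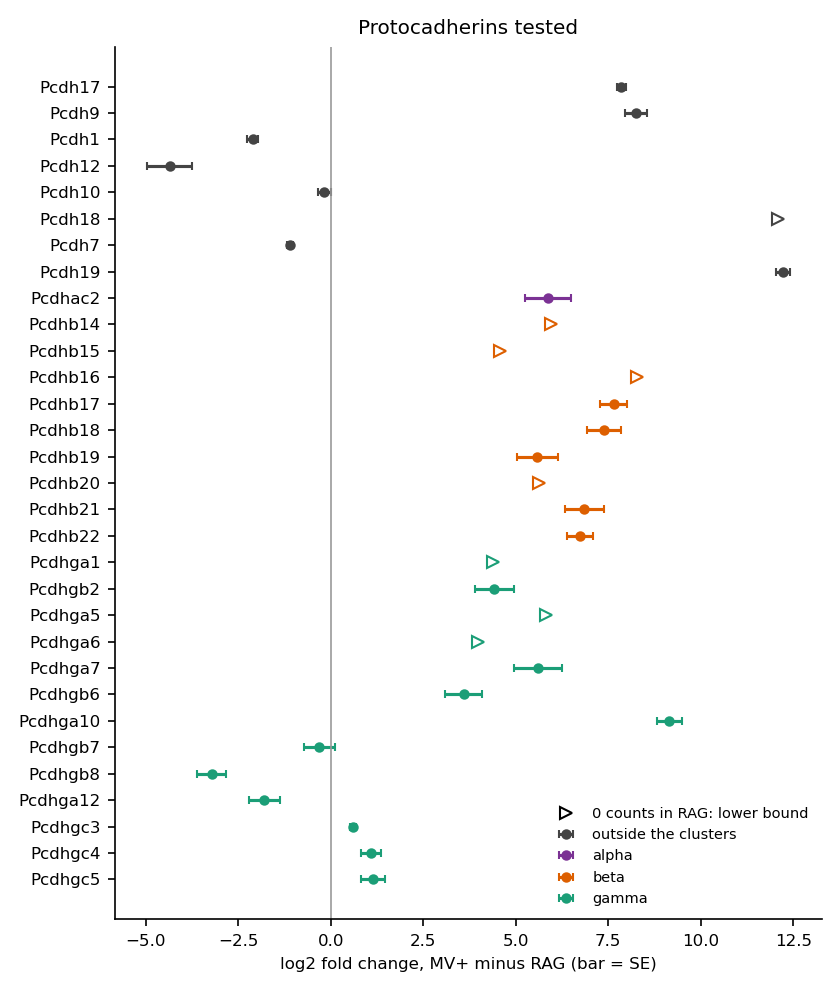
Log2 fold change (MV+ minus RAG) of the 31 protocadherins tested, with the standard error (SE) of the edgeR fit as a bar, colored by cluster. Open triangles are lower bounds for the 8 tested genes with 0 counts in RAG, and the 5 genes called lower in MV+ (Pcdh1, Pcdh7, Pcdh12, Pcdhgb8 and Pcdhga12) are the points clearly left of 0.

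Among the genes outside the clusters, the delta-2 group held the highest levels in MV+. Pcdh17, which acts in presynaptic contacts and axon extension, had 4364, 5195 and 5494 counts in MV+ and 24, 33 and 45 in RAG. Its level was 238 ± 12.5 CPM against 1.03 ± 0.238, and the log2 fold change was 7.85 ± 0.12 (SE, adjusted p = 3.92e-17 by edgeR). All MV+ libraries lay far above all RAG libraries, and RAG still held a measurable level.

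Pcdh19, whose human counterpart is mutated in an X-linked epilepsy of girls, had 2924, 3770 and 3844 counts in MV+ and 2, 0 and 1 in RAG. By total counts the ratio was 5497, with a counting interval from 1880 to 26658 (95%, exact Poisson, counting error only, as for all such intervals). The fitted log2 fold change was 12.22 ± 0.19 (adjusted p = 4.39e-17 by edgeR) and became 13.08 without RAG library 1, which held most of the few RAG counts. Pcdh18, which binds the adaptor Dab1 in mouse, had 2526, 3020 and 2779 counts in MV+ and none in the 3 RAG libraries. That made it at least 4342-fold higher in MV+, taking 3 counts over the RAG libraries as the limit of detection (adjusted p = 7.40e-13 by edgeR).

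The remaining delta-2 genes did not follow. Pcdh10, a regulator of axon pathways that also occurs outside the nervous system, had 37, 39 and 53 counts in MV+ and 69, 64 and 93 in RAG. Its levels were 2.02 ± 0.154 and 2.30 ± 0.149 CPM, and the difference of -0.17 ± 0.17 was not called (adjusted p = 0.366 by edgeR), although the 3 RAG values were all above the 3 MV+ values on this scale, as the values of 80.6% of all genes tested did not overlap between the lines. The ratio of counts was 0.893, with a counting interval from 0.714 to 1.11. Pcdh8, known as paraxial protocadherin in the early embryo, had 1 count in MV+ and 0 in RAG, so no difference was detectable at this depth. Pcdh10 shares 154 of its 11797 exon bases with the row 1700027H10Rik, and the other genes outside the clusters share none.

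Delta-1 genes were split in direction. Pcdh7, which binds the phosphatase inhibitor Set, had 815, 963 and 1214 counts in MV+ and 2855, 2995 and 4048 in RAG. It was at 46.9 ± 2.22 CPM in MV+ against 101 ± 12 in RAG, fell by 1.11 ± 0.08 on the log2 scale (adjusted p = 8.27e-09 by edgeR), and was the protocadherin with the highest CPM in RAG. Pcdh1, a gene of airway and other epithelia, was also lower in MV+, with 36, 51 and 63 counts against 355, 245 and 410 and a log2 fold change of -2.11 ± 0.15 (adjusted p = 2.63e-09). The groups did not overlap for either gene, as for 80.6% of all genes tested.

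Pcdh9 went the other way within the same subgroup. It had 251, 304 and 307 counts in MV+ and 1, 3 and 0 in RAG, which is 337-fold more by counts (interval 131 to 1240). Its fitted log2 fold change of 8.24 ± 0.30 (adjusted p = 7.10e-13 by edgeR) was between 7.47 and 9.54 when RAG library 3 or RAG library 2 was left out. Pcdh11x, the X-linked delta-1 gene, had 1 count in each line.

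Of the other genes outside the clusters, Pcdh12, an endothelial and trophoblast protocadherin also called VE-cadherin-2, had 0, 0 and 2 counts in MV+ and 24, 18 and 31 in RAG. It was 23.3-fold lower in MV+ by counts, with an interval from 6.23 to 196 (log2 fold change -4.36 ± 0.60, adjusted p = 7.36e-06 by edgeR, and -7.35 without MV+ library 3). Pcdh15, which forms the tip links of hair cells in the inner ear, was not tested and had 1, 1 and 1 counts in MV+ and 9, 5 and 16 in RAG. Pcdh20 was not tested either, with 6, 11 and 9 counts in MV+ and 0 in RAG, at least 13.6-fold higher. Pcdh1 (38356348 to 38369416) and Pcdh12 (38426746 to 38444055) lie on the same chromosome as the clusters, 18 in mm9, beyond the end of the gamma cluster at 38001526, and both were lower in MV+.

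**Figure D2:**
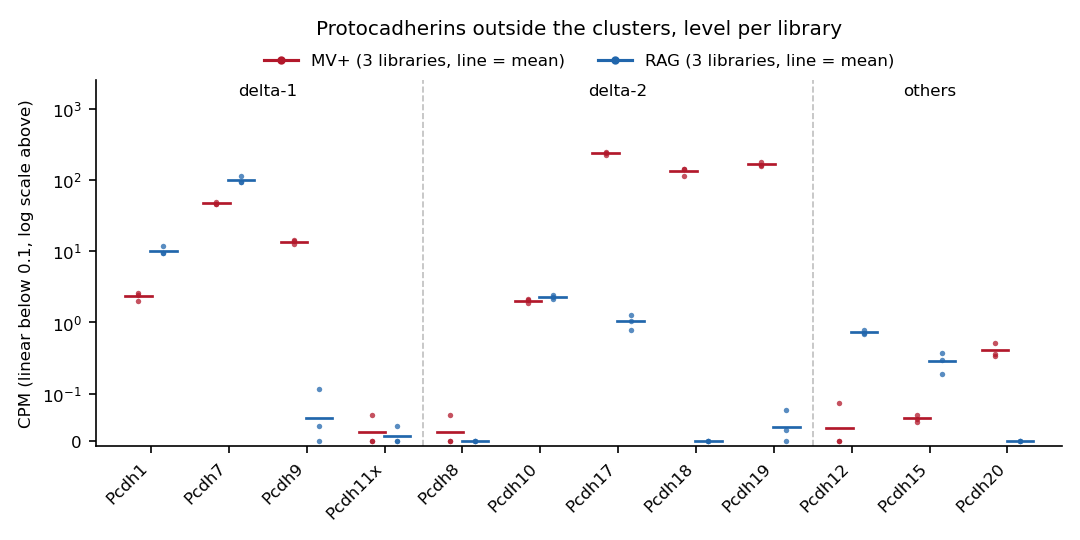
Level of the 12 protocadherins outside the clusters in CPM, 1 point per library and a line at the mean of 3 libraries, on an axis that is linear below 0.1 and logarithmic above. The means of Pcdh17, Pcdh18 and Pcdh19 lay between 132 and 238 CPM in MV+ and at or below 1.03 in RAG, whereas those of Pcdh7 were 46.9 in MV+ and 101 in RAG.

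Summed over the 12 genes, MV+ held 602 ± 38.2 CPM and RAG 116 ± 11.6. Pcdh17, Pcdh19 and Pcdh18 made up 39.5% ± 0.56, 27.6% ± 0.82 and 21.9% ± 1.54 of these counts in MV+. In RAG, Pcdh7 made up 87.2% ± 1.79 and Pcdh1 8.91% ± 1.67. The leading genes were delta-2 genes in MV+ and delta-1 genes in RAG.

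For the clustered genes the counting of shared exons comes first, because it sets what each row can show. The clusters lie in a row on chromosome 18 of mm9, alpha from 37089939 to 37347314, beta from 37424652 to 37681073 and gamma from 37821599 to 38001526, all on the plus strand. Every gamma row contains the same constant exons and shares between 2109 and 2118 bases with the others. In alpha, 13 of the 15 rows share 2860 bases of constant exon with each other and with Pcdha4, which shares 5270 bases in all. Reads that overlap several gene rows were left out at the counter's default settings, so a count of these genes comes only from the bases no other row holds, between 2346 and 2562 for those 13 alpha rows and between 2364 and 2961 for gamma. The deposited FPKM values divide by the whole exon length and are therefore lower than a level per own base by a factor between 2.12 and 2.22 in alpha and between 1.72 and 1.90 in gamma. Pcdha4 keeps 52 bases of its own and Pcdha4-g, a row that runs from an alpha variable exon into the gamma constant exons, keeps 0, so their 0 counts carry no information. The beta genes share no exon. Variable exons also resemble each other in sequence, and of the 50-base stretches in own exon between 72.0 and 100% were unique in mm9 in alpha, between 88.0 and 100% in beta and between 81.5 and 100% in gamma, so reads from the repeated stretches were lost to the counts.

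The alpha cluster was nearly silent in both lines. All of its rows together had 18, 25 and 21 counts in MV+ and 2, 1 and 0 in RAG. Almost all of the MV+ counts came from Pcdhac2, the C-type gene at the end of the cluster that is known from the spacing of serotonergic axons, with 15, 21 and 18 counts against 1, 0 and 0. By counts it was 84.5-fold higher in MV+, with an interval from 14.5 to 3399, and it was the only alpha gene tested (log2 fold change 5.87 ± 0.62, adjusted p = 3.67e-07 by edgeR, between 5.21 and 7.51 when RAG library 3 or RAG library 1 was left out). Pcdhac1, the other C-type alpha gene, had 0 counts in all 6 libraries. The 13 remaining alpha rows had 10 counts in MV+ and 2 in RAG, and 9 alpha rows had none in any library.

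The beta cluster was on in MV+ and almost absent from RAG. Its summed level was 29.0, 30.5 and 29.8 CPM in the 3 MV+ libraries and 0.165, 0.153 and 0.0697 in RAG, from 1894 counts against 12. A count in some MV+ library was found for 20 of the 22 genes, all but Pcdhb1 and Pcdhb8, and in every MV+ library for 15. No beta gene had a count in every RAG library.

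The level in MV+ changed along the cluster. Pcdhb14 to Pcdhb22, the 9 genes nearest the gamma cluster, held 95.0% ± 0.81 of the beta counts in MV+ (28.3 ± 0.949 CPM together), and Pcdhb1 to Pcdhb13 held 1.48 ± 0.21 CPM together. This division was made after the values were seen. The 9 genes were also the 9 that passed the filter, each through its MV+ libraries alone, so that all were called higher in MV+ was set by the filter. Of the 13 untested genes none had more than 21 counts in MV+ or 2 in RAG.

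Pcdhb16 was the highest beta gene, with 158, 208 and 223 counts in MV+ and 0 in RAG, at least 307-fold higher (adjusted p = 5.58e-12 by edgeR). It made up 31.1% ± 1.19 of the beta counts in MV+. Pcdhb17 had 100, 101 and 111 counts against 1, 1 and 0, a ratio of 244 with an interval from 67.0 to 2025. Pcdhb22, the last beta gene, had 83, 113 and 107 against 3, 0 and 1, a ratio of 119 with an interval from 45.8 to 438. The groups were far apart for each of these genes.

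Lower beta genes showed the same separation. Pcdhb18 had 37, 54 and 64 counts in MV+ against 0, 0 and 1 in RAG, and Pcdhb21 had 32, 28 and 48 against 1, 0 and 0. Pcdhb14 had 22, 40 and 56 counts and Pcdhb20 28, 28 and 38, both with none in RAG, which made them at least 61.5-fold and 49.0-fold higher. Pcdhb19, at 20, 27 and 28 counts against 0, 2 and 0, was 58.7-fold higher by counts, with an interval from 15.7 to 493. Pcdhb15, with 12, 16 and 18 counts against 0, was at least 24.0-fold higher. The fitted log2 fold changes of Pcdhb17, Pcdhb18, Pcdhb19, Pcdhb21 and Pcdhb22 rest on 1 to 4 counts in RAG and ranged from 4.86 to 8.86 when 1 RAG library was left out, with every call kept.

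**Figure D3:**
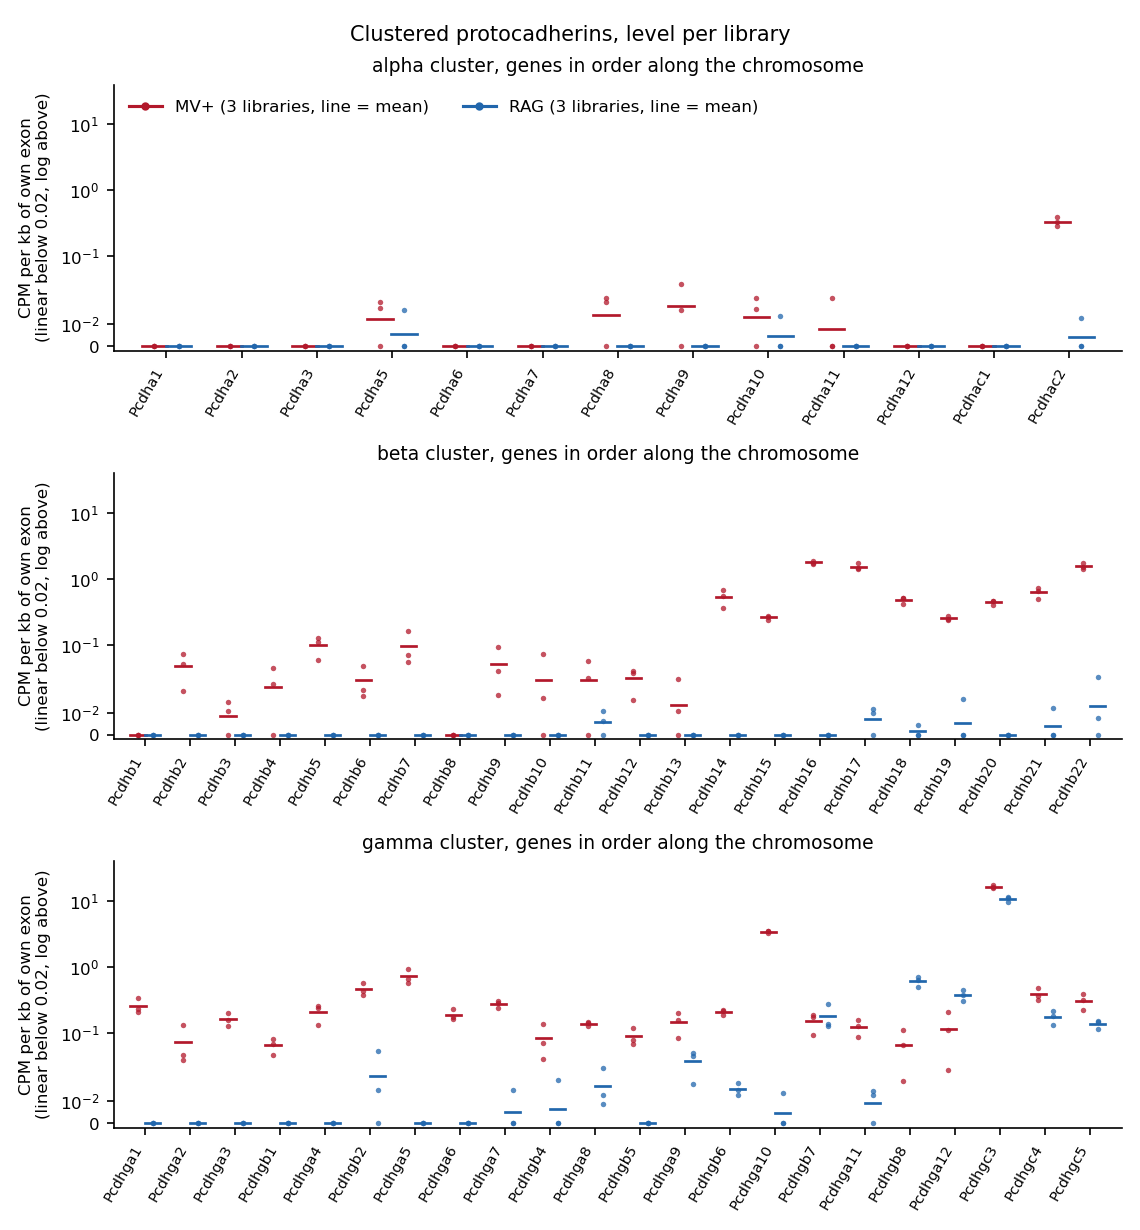
Level of the clustered genes in CPM per kb of exon that no other row holds, in the order of the genes along chromosome 18, 1 point per library and a line at the mean of 3 libraries, on an axis that is linear below 0.02 and logarithmic above (Pcdha4 and Pcdha4-g, with 52 and 0 own bases, are left out). Pcdhac2, the 9 beta genes from Pcdhb14 on and the tested gamma genes up to Pcdhga10 were higher in MV+, Pcdhgb8 and Pcdhga12 were higher in RAG, and Pcdhgc3 was the highest clustered gene in both lines.

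The gamma cluster was expressed in both lines, at 61.3 ± 2.83 CPM in MV+ and 32.0 ± 2.21 in RAG when its 22 rows were summed. All 22 genes had a count in every MV+ library, and 9 had one in every RAG library. Of the 13 tested, 10 were higher in MV+, 2 were lower and 1 was not called, beside 79.3% of all genes tested that were called and 40.4% that were higher. In all libraries of MV+ alone 9 of the 13 reached the minimum of the filter, in RAG alone 2 and in both lines 1 (Pcdhgc3), so nothing is read from these counts.

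Pcdhgc3, a C-type gene whose protein binds the Wnt pathway inhibitor Axin1, dominated in both lines. It had 752, 847 and 1097 counts in MV+ and 904, 653 and 1221 in RAG. Scaled to CPM, these were 42.3 ± 2.20 against 27.7 ± 2.43, and the log2 fold change was 0.61 ± 0.08 (adjusted p = 6.83e-06 by edgeR), with all MV+ libraries above all RAG libraries. The raw counts alone do not show this order, because the RAG libraries were deeper. In CPM, 80.6% of all genes tested did not overlap between the lines. The other C-type genes, Pcdhgc4 and Pcdhgc5, reached the filter's minimum in all libraries of MV+ alone, so their direction is a description only. Pcdhgc4, which is needed for the survival of neurons in mouse, was at 0.513 ± 0.122 CPM in RAG and 1.11 ± 0.245 in MV+ (log2 fold change 1.09 ± 0.28, adjusted p = 0.00238 by edgeR). Pcdhgc5 was at 0.360 ± 0.051 CPM in RAG and 0.795 ± 0.216 in MV+ (1.15 ± 0.32, adjusted p = 0.00405 by edgeR).

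Summed, the A type genes separated the lines further, at 14.3 ± 0.444 CPM in MV+ against 1.31 ± 0.267 in RAG, a ratio of 11.0. The B type genes summed to 2.79 ± 0.449 against 2.08 ± 0.0644 CPM, a ratio of 1.34, beside 1.54 for the C-type genes. These sums rest on a few genes and do not describe the types as a whole. Pcdhga10 alone held 8.29 CPM of the A type sum in MV+. Most of the B type sum in RAG came from Pcdhgb8 (1.53 CPM) and Pcdhgb7 (0.437 CPM). Pcdhga10 had 153, 167 and 207 counts in MV+ and 1, 0 and 0 in RAG, a ratio of 825 with an interval from 147 to 32633, and was second to Pcdhgc3 in MV+ at 8.29 ± 0.304 CPM. Its fitted log2 fold change was 9.14 ± 0.34 (adjusted p = 9.16e-13 by edgeR) and lay between 8.49 and 10.78 when RAG library 3 or RAG library 1 was left out. Pcdhga5 had 41, 33 and 34 counts against 0, at least 56.3-fold higher in MV+. Pcdhgb2 had 17, 23 and 35 counts against 4, 1 and 0, a ratio of 23.5 with an interval from 9.62 to 74.4, and its fitted log2 fold change of 4.42 was between 3.64 and 5.94 when RAG library 3 or RAG library 1 was left out.

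The 14 genes from Pcdhga1 to Pcdhgb6 at the start of the cluster had 487 counts in MV+ and 25 in RAG, or 7.64 ± 0.181 and 0.266 ± 0.0906 CPM together. Pcdhga1, Pcdhga6, Pcdhga7 and Pcdhgb6 were the other tested genes of this stretch, with 30 to 45 counts in MV+ and 0 to 4 in RAG. Each passed the filter through its MV+ libraries alone, so that all were called higher was set by the filter. The fitted log2 fold change of Pcdhga7 was between 4.95 and 7.28 without RAG library 3 or RAG library 2. Of the 9 untested gamma genes none had more than 31 counts in MV+ or 9 in RAG. The levels of these genes in MV+ were low, and none but Pcdhga5 and Pcdhgb2 reached 1 CPM.

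In RAG the A and B type genes of highest level were a different pair, both near the end of the array before the C-type genes. Both reached the filter's minimum in all libraries of RAG alone, so the direction of their calls is a description only. Pcdhgb8 had 48, 46 and 54 counts in RAG and 5, 1 and 4 in MV+, at 1.53 ± 0.259 against 0.163 ± 0.115 CPM, and its log2 fold change was -3.22 ± 0.39 (adjusted p = 1.54e-06 by edgeR). Pcdhga12 had 27, 35 and 48 counts in RAG and 11, 7 and 2 in MV+, and the log2 fold change of -1.79 ± 0.41 (adjusted p = 0.0011) became -2.45 without MV+ library 1. The libraries of the lines did not overlap for either gene, as for 80.6% of all genes tested. Pcdhgb7, a neighbor in the same stretch, had 4, 9 and 11 counts in MV+ and 10, 8 and 29 in RAG, overlapped between the lines and was not called (-0.30 ± 0.41, adjusted p = 0.509, and 0.23 without RAG library 3), with a counting ratio of 0.799 and an interval from 0.467 to 1.33. Pcdhga11, between Pcdhgb7 and Pcdhgb8, had 21 counts in MV+ and 2 in RAG and was not tested.

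As a share of the gamma counts, the values of the lines did not overlap for Pcdhgc3 or Pcdhga10. Pcdhgc3 made up 68.4%, 68.9% and 69.6% in MV+ and 87.9%, 84.7% and 87.3% in RAG. Pcdhga10 made up 13.9%, 13.6% and 13.1% in MV+ and 0.0972% in RAG library 1, with 0 counts in the other RAG libraries. Pcdhgb8 and Pcdhga12 together with Pcdhgb7 were the main A and B type genes of RAG, at 4.83% ± 1.06, 3.53% ± 0.96 and 1.36% ± 0.62 of the gamma counts, against 0.263% ± 0.187, 0.565% ± 0.437 and 0.598% ± 0.203 in MV+. Exact binomial intervals around the Pcdhgc3 shares reached from 65.5 to 71.8% over the MV+ libraries and from 82.0 to 89.8% over the RAG libraries and cover counting error only. Since constant exon reads are not in the counts, these are shares of reads in variable exons.

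**Figure D4:**
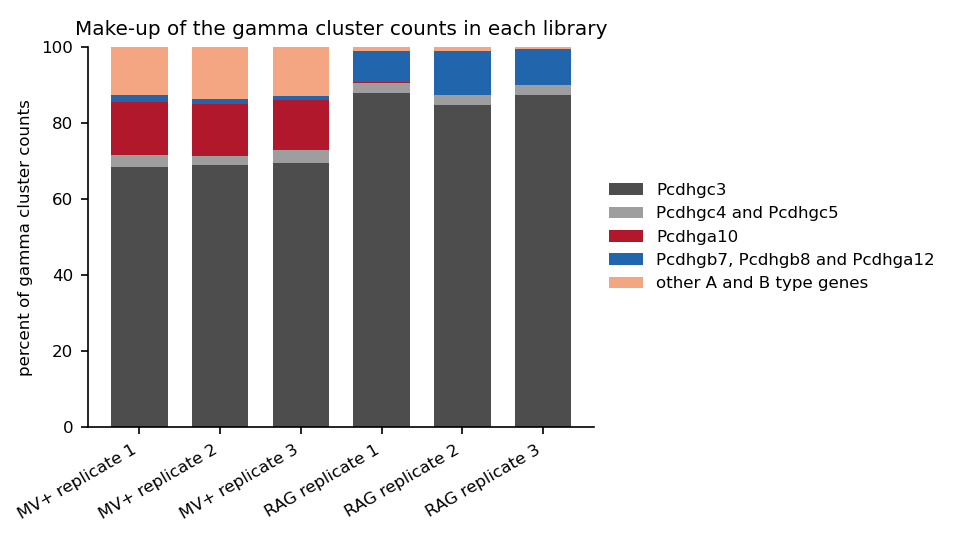
Percent of the gamma cluster counts that each gene or group of genes made up in each of the 6 libraries. Pcdhgc3 made up 68.4 to 69.6% in MV+ and 84.7 to 87.9% in RAG, Pcdhga10 was seen almost only in MV+, and Pcdhgb7, Pcdhgb8 and Pcdhga12 took most of the A and B type counts in RAG.

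Levels of different genes can be compared per kb of own exon. In MV+ the order was led by Pcdh18 (25.6 ± 3.25 CPM per kb) and Pcdh17 (25.0 ± 1.32), whose libraries overlapped, followed by Pcdhgc3 (16.5 ± 0.858) and Pcdh19 (16.1 ± 1.15), which overlapped as well. Pcdh7 (5.15 ± 0.245), Pcdhga10 (3.43 ± 0.126) and Pcdh9 (2.47 ± 0.185) came next, each apart from its neighbors. Pcdhb16, Pcdhb22 and Pcdhb17 followed at 1.76 ± 0.109, 1.56 ± 0.173 and 1.52 ± 0.165, with overlap between neighbors. In RAG, Pcdh7 (11.1 ± 1.32) and Pcdhgc3 (10.8 ± 0.948) overlapped at the top, Pcdh1 (2.62 ± 0.332), Pcdhgb8 (0.614 ± 0.104) and Pcdhga12 (0.377 ± 0.0764) each stood apart, and Pcdh10 (0.197 ± 0.0128) overlapped with Pcdhgb7 (0.181 ± 0.085). Divided by the whole exon length instead, Pcdhgc3 was at 9.02 in MV+ and 5.92 in RAG and fell below Pcdh19 in MV+. A mean of at least 1 CPM was reached by 20 of the 71 genes in MV+ and by 7 in RAG.

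Clustered genes as a whole summed to 92.1 ± 2.43 CPM in MV+ and 32.2 ± 2.22 in RAG, which was 13.3% ± 1.05 of all protocadherin counts in MV+ and 21.9% ± 2.71 in RAG. The gamma sum in MV+ was 1.92 times that in RAG, whereas the beta sum was 230-fold higher in MV+. The difference between clusters was not tested.

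The border genes read on each side of the clusters were the nearest ones tested, so that they were expressed was set by this choice. Taf7 and Slc25a2 were taken by position alone. Before the alpha cluster, Hars2, a mitochondrial histidine tRNA synthetase, gave 32.8 ± 1.14 CPM in MV+ against 29.5 ± 0.812 in RAG (0.15 ± 0.07, adjusted p = 0.0750 by edgeR), a difference that was called with a term for the replicate number (0.15, adjusted p = 0.0443), with upper quartile scaling (0.0104), with a minimum of 1 CPM (0.0471) and on the FPKM scales (0.00562 to 0.00765 by limma). Zmat2, a splicing factor, was lower in MV+ (-0.67 ± 0.09, adjusted p = 3.28e-06), and the vault RNA gene Vaultrc5 was not called (0.10 ± 0.45, adjusted p = 0.848, and 0.65 without RAG library 3, adjusted p = 0.0158). Between the beta and gamma clusters, Taf7, a subunit of the general factor TFIID, had 144, 135 and 139 counts in MV+ against 79, 65 and 111 in RAG, with a difference of 1.37 ± 0.15 on the log2 scale (adjusted p = 6.34e-07). Slc25a2, a mitochondrial carrier gene beside it, had 6, 5 and 16 counts against 0, 1 and 4 and was not tested.

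Diap1, Hdac3 and Fchsd1 are the nearest tested genes after the gamma cluster. Diap1, a formin that nucleates actin, was at -0.28 ± 0.10 (adjusted p = 0.0171 by edgeR), a call lost without MV+ library 2 (adjusted p = 0.0521), RAG library 1 (0.0958) or RAG library 2 (0.0534) and with upper quartile scaling (0.0755), and on the FPKM scales, where the difference was between -0.09 and -0.08 (adjusted p between 0.418 and 0.457 by limma). Hdac3, a histone deacetylase, was higher in MV+ (0.56 ± 0.07, adjusted p = 4.28e-06). Fchsd1 was at 0.30 ± 0.12 (adjusted p = 0.0283), a call lost with DESeq2 (0.0871), with no filter (0.0531) and without MV+ library 2 (0.0687), MV+ library 3 (0.125), RAG library 2 (0.0872) or RAG library 3 (0.0811). By fitted fold change the 7 border genes tested, Taf7 included, lay within a factor of 3 between the lines.

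A list of 23 genes that act on the clusters was read next, covering CTCF, cohesin, DNA methylation and silencing factors. All were tested, and 15 were higher in MV+, 4 were lower and 4 were not called, with a median log2 fold change of 0.39 (0.03 over all genes tested). That 19 of 23 were called is near the 79.3% of all genes tested. With a term for the replicate number, Stag2 (0.13, adjusted p = 0.0133 by edgeR) and Pds5b (0.11, adjusted p = 0.0367), both tied to cohesin, were called higher as well. The DNA demethylases moved most. Tet1 had 86, 78 and 106 counts in MV+ and 16, 12 and 19 in RAG (3.16 ± 0.21, adjusted p = 1.07e-09 by edgeR), and Tet3 rose by 1.80 ± 0.09 and Tet2 by 1.38 ± 0.12. The libraries of the lines did not overlap for the Tet genes, as for 80.6% of all genes tested. The 3 largest decreases in MV+ were those of Wapal, which releases cohesin from DNA (-0.75 ± 0.07), Pds5a, a cohesin regulator (-0.60 ± 0.07), and the DNA methyltransferase Dnmt3b (-0.49 ± 0.14, adjusted p = 0.00508), whose call was lost on the FPKM scales (adjusted p between 0.0594 and 0.132 by limma).

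After the Tet genes, the cohesin subunit Smc3 (0.85 ± 0.11), the DNA methyltransferase Dnmt1 (0.73 ± 0.07), the CTCF-binding protein Wiz (0.72 ± 0.08) and the histone methyltransferase Setdb1 (0.68 ± 0.06) had the largest increases, with adjusted p between 1.03e-07 and 3.93e-05 by edgeR. Ctcf reached 82.9 ± 3.95 CPM in MV+ and 68.3 ± 8.38 in RAG (0.28 ± 0.09, adjusted p = 0.00743 by edgeR, and 0.17 without RAG library 3, adjusted p = 0.0509). Rad21, a cohesin subunit, was at 498 ± 20.8 and 607 ± 25.2 CPM (-0.29 ± 0.07, adjusted p = 0.000944), a call that was lost on the FPKM scales (-0.10, adjusted p between 0.108 and 0.136 by limma). Smchd1, which silences the clusters in mouse, was at 201 ± 1.01 and 145 ± 3.36 CPM (0.47 ± 0.06, adjusted p = 4.13e-06). The genes of this paragraph were picked after the list's values were known.

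Of 29 listed partners of protocadherin proteins, 26 were tested, 10 were higher in MV+, 9 were lower and 7 were not called, with a median log2 fold change of -0.01. The 19 of 26 called did not exceed the share over all genes tested (79.3%). Fyn, a kinase that binds alpha protocadherins, had 548, 680 and 646 counts in MV+ and 1, 1 and 0 in RAG, a ratio of 1466 with an interval from 405 to 12116. Cdh2 (N-cadherin), the partner of Pcdh19 in zebrafish, had 2996, 3250 and 3805 counts against 21, 12 and 18, a log2 fold change of 8.26 ± 0.12 (adjusted p = 4.39e-17 by edgeR). Wasf3, a WAVE complex member, had 26, 15 and 17 counts against 0, 0 and 1, a ratio of 90.8 with an interval from 15.7 to 3646. The libraries of the lines did not overlap for these 3 genes, as for 80.6% of all genes tested.

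Partners that were lower in MV+ included another member of the WAVE complex and a kinase. Abi3 had 8, 3 and 5 counts in MV+ and 131, 101 and 173 in RAG (-3.99 ± 0.27, adjusted p = 1.91e-09 by edgeR). Ptk2b (Pyk2), a kinase that clustered protocadherins inhibit, had 46, 40 and 87 against 1324, 953 and 1721 (-3.89 ± 0.16, adjusted p = 3.83e-11). Fzd5, a Wnt receptor, was lower as well (-1.52 ± 0.09, adjusted p = 5.14e-10). Dab1, the partner of Pcdh18, had 0 counts in all 6 libraries, and Axin1, the partner of Pcdhgc3, was not called (-0.11 ± 0.06, adjusted p = 0.135).

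**Figure D5:**
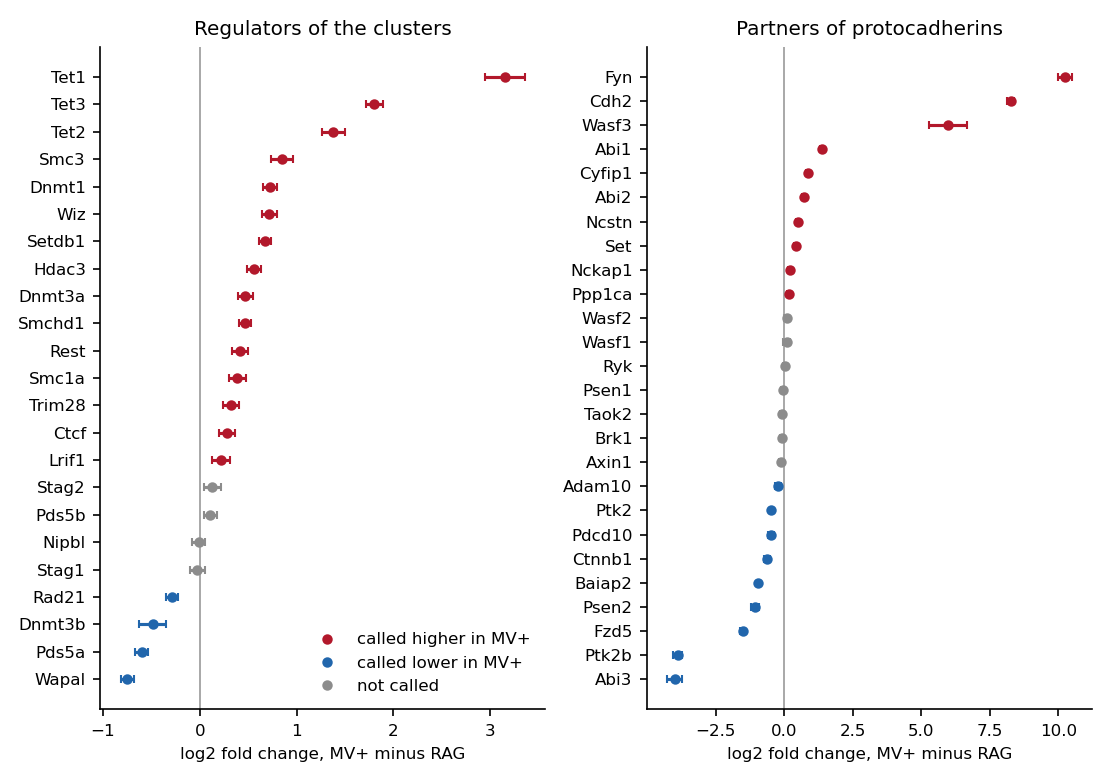
Log2 fold change (MV+ minus RAG) of the tested regulators of the clusters (left, 23 genes) and partners of protocadherins (right, 26 genes), with the SE of the edgeR fit as a bar, on separate axes. Regulators lay between -0.75 and 3.16 with Tet1, Tet3 and Tet2 at the top, and partners between -3.99 and 10.23, with Fyn (9.50 without RAG library 3), Cdh2 and Wasf3 (7.47 without RAG library 3) highest.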

How the data were processed

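RNA was sequenced as single reads of 50 nt from 3 flasks each of MV+ and RAG cells after ribosomal depletion, in a preparation not described as marking strand. The authors aligned reads to mm9 with TopHat2 and deposited raw counts per RefSeq gene from featureCounts 1.5.0-p3, run at defaults, which ignore strand and leave out reads that map to several places or overlap several genes. FPKM, which the authors calculated by dividing those counts by whole exon length and library total, served only as an alternative. Columns of 0 other samples were found.

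Counts were tested with edgeR 4.0.16 (R 4.3.3, robust quasi-likelihood, filterByExpr, TMM, no block), two-sided, with Benjamini-Hochberg adjustment over 12965 genes and calls at 0.05. Fold changes are MV+ minus RAG, and their SE is the fold change over the square root of F. CPM use TMM-scaled library sizes. The p-values measure the spread between flasks of 1 line each. A gene at 0 counts in a line was given a bound against 3 counts summed over that line. Exon sharing was computed from the exons of the count table, and 50-base uniqueness from the mm9 genome.

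The members and all lists (23 regulators, 29 partners, markers) were chosen with earlier results of these data known. Genes named were every tested protocadherin outside the clusters, up to 8 tested genes of highest mean CPM per cluster, any member at 1 CPM or more in a line, up to 3 called genes per direction and list, and the cluster neighbors. Others named were chosen after their values were seen. DESeq2 1.42.0 and limma 3.58.1 on log2(FPKM + 1) were alternatives. Lrif1 and Brk1 were matched through older symbols.

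Replicates of a line differed by more than sampling noise (chi-square per degree of freedom 8.87 to 92.7). Deviations of same-numbered libraries from their line means correlated at 0.22, 0.14 and 0.13, so a pairing of the libraries by number stayed possible. The labels name only flasks and no shared batch, and the main test therefore used no block. A fit with the replicate number as a block was run as an alternative, and the calls that changed with it are given below.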

Additional observations from a re-analysis of the deposited data

How the results depend on the processing

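All 29 protocadherin calls kept their direction and stayed called with DESeq2, with RLE or upper quartile factors, with no filter, on the 3 FPKM scales and without any single library. With a minimum of 1 CPM, 18 were kept and 11 were not tested. With the replicate number as a block, the same 29 genes were called and 0 were lost, and Hars2 was the only border gene to change (0.15, adjusted p = 0.0443 by edgeR), and regulators called higher went from 15 to 17 with Stag2 and Pds5b. Counts of genes called higher moved with the filter and with the tool or scale. DESeq2 and the unfiltered FPKM scales change the model and the filter together, so their parts were not separated. Among all protocadherins 24 became 38 with DESeq2, 42 with no filter, 15 with the 1 CPM minimum and 40 on log2(FPKM + 0.1), and 5 called lower became 3 with that minimum. In beta 9 became 17 with no filter and 15 on log2(FPKM + 0.1). In gamma 10 became 19 with DESeq2, no filter and log2(FPKM + 0.1), 17 on log2(FPKM + 1) and 3 with the 1 CPM minimum, where gamma genes called lower were 1 and alpha genes called higher 0. The 4 regulators called lower were 2 on the FPKM scales, where the median of all genes shifted by 0.17 and 61.0% of called genes were higher in place of 50.9%. Border genes called higher were 5 on unfiltered FPKM, and those called lower were 1 with upper quartile factors and on the FPKM scales and between 1 and 2 when 1 library was left out. Of 857 alternative values for 58 single genes, 20 lost and 7 gained a call. The Pcdhgc3 level in MV+ was 17.5 CPM per kb on library totals and 9.02 per kb of whole exon (5.92 in RAG), and the MV+ sums were 31.7 CPM for beta and 65.3 for gamma on library totals. Values for genes with under 5 counts in a line are limited by depth, and RAG was sequenced more deeply than MV+.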
